A study of Mus musculus with 4 samples.

Results

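The liver expression of 10 genes was examined: the 6 that encode the urea cycle proper and its activating enzyme (Nags, Cps1, Otc, Ass1, Asl and Arg1), and 4 that feed or carry its substrates (Slc25a15, Slc25a13, Glud1 and Slc7a2). They were chosen by gene symbol, and all 10 were found among the 25655 genes of the deposited table and passed the filter on low counts. RNA was sequenced from the livers of ADAR2+/+/GluR-BR/R mice (HFD-WT) and ADAR2-/-/GluR-BR/R mice (HFD-KO), with 2 libraries per genotype. All mice were fed the high-fat diet from 5 weeks of age for 12 weeks, so no chow-fed group enters any value here. Both genotypes carried the edited GluR-B allele, which rescues mice that lack ADAR2 from early death, and the methods describe them as offspring of heterozygous parents on a B6129S background. The study's reporting summary says that its later experiments kept to males. The legend for its liver transcriptome gives more mice per group than the 2 libraries analysed here, and how the mice were divided over the libraries is not given in the sources used here. The p-values therefore measure the spread between these libraries, which may be in part technical.

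The urea cycle is the route by which the liver turns toxic ammonia into urea. Glutamate dehydrogenase (Glud1) and other reactions release ammonia in the mitochondrial matrix, where carbamoyl-phosphate synthetase (Cps1), switched on by the product of Nags, and ornithine transcarbamylase (Otc) make citrulline. Citrulline leaves in exchange for ornithine through the carrier encoded by Slc25a15, and in the cytosol argininosuccinate synthetase (Ass1), argininosuccinate lyase (Asl) and arginase (Arg1) complete the cycle. Citrin (Slc25a13) exports the aspartate that supplies nitrogen to the cycle, and the cationic amino acid transporter encoded by Slc7a2 brings arginine and ornithine into the cell. In mammals these enzymes are found at high levels in hepatocytes, mostly on the periportal side of the lobule.

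No change in the expression of these genes between HFD-KO and HFD-WT livers passed the test. In the quasi-likelihood test of edgeR, with Benjamini-Hochberg adjustment over 12967 genes, 0 of the 10 genes had an adjusted p under 0.05, where 0.0771% of all genes tested had one, and 0 had an unadjusted p under 0.05, where 8.98% of all genes tested had one. DESeq2's Wald test also called 0 of the 10 at either threshold. The log2 fold changes, HFD-KO against HFD-WT, lay between -0.17 for Ass1 and 0.14 for Nags, with 4 above and 6 below 0. Their median was -0.018, and that of all genes tested was 0.0068. The median of the 10 turned to 0.046 without HFD-KO replicate 1, and was -0.069 without HFD-KO replicate 2, -0.058 without HFD-WT replicate 2, -0.0064 without HFD-WT replicate 1 and -0.065 by library size alone. For each of the 10 genes the 95% interval of the fold change lay inside 1.5-fold in either direction, as it did for 65.2% of all genes tested. Smaller changes that lie inside a gene's own interval are not ruled on by these libraries, and the intervals differed in width. That of Slc25a13 ran from a fold of 0.868 to 1.13, and that of Cps1, the widest, from 0.728 to 1.27. With 2 libraries against 2, the smallest p of an exact permutation test is 0.333 for any single gene.

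**Figure D1:**
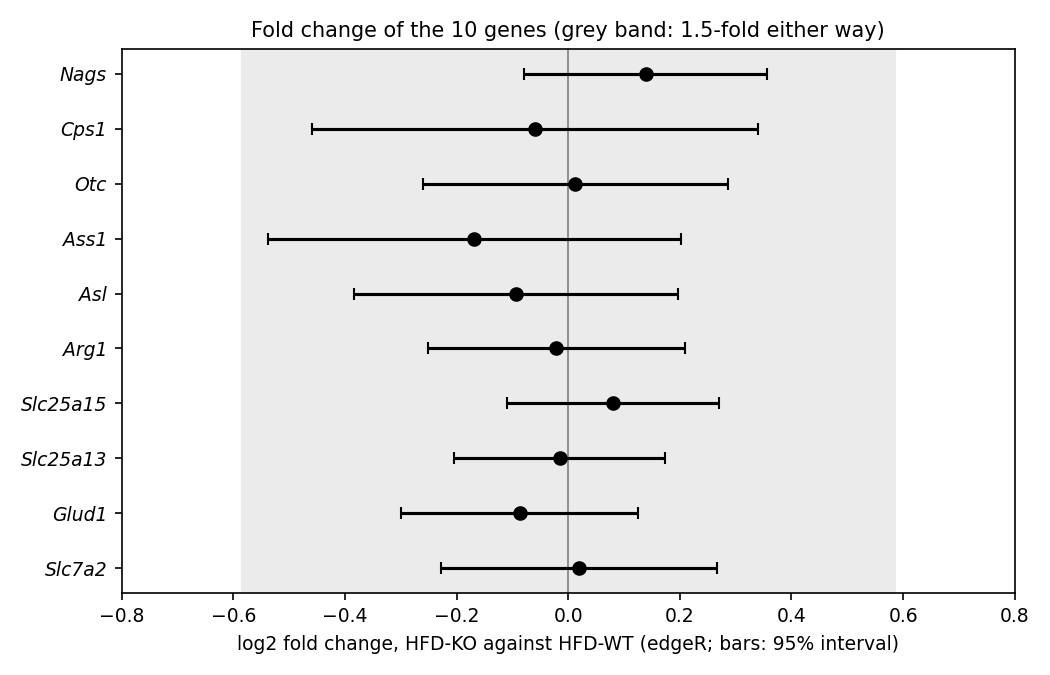
Log2 fold change of each of the 10 genes, HFD-KO against HFD-WT, with the 95% interval from the edgeR fit (horizontal axis, log2 scale). All 10 intervals cross 0 and stay inside the grey band of 1.5-fold either way. Those of Ass1 and Cps1 are the widest, and the point furthest from 0 is that of Ass1 at -0.17.

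All levels below are counts scaled to library size (CPM) on TMM-adjusted library sizes, unless they are given as length-scaled values (TPM), which the authors also divided by gene length. Library totals ran from 24480798 to 28691330 counts, at which 3 counts correspond to between 0.104 and 0.126 CPM, and intervals based on counts alone would cover counting error only. Adarb1, the targeted gene that encodes ADAR2, had 15.7 and 19.8 CPM in HFD-WT and 6.23 and 9.55 CPM in HFD-KO livers, so reads were still counted on it in both HFD-KO libraries (log2 fold change of -1.17 with a standard error, SE, of 0.20, edgeR adjusted p = 0.159). The targeted gene was called lower by DESeq2 (adjusted p = 0.000645), by edgeR with no filter on low counts (adjusted p = 0.00251) and with a replicate block (adjusted p = 0.0400), and when either HFD-KO library was left out (log2 fold change of -0.89 without replicate 1 and -1.51 without replicate 2). Over all alternatives its adjusted p ranged from 3.11e-07 to 0.971. The 12 hepatocyte marker genes, among them albumin, summed to between 86188 and 102400 CPM and all had reads, so the defining markers of liver were present. At an unadjusted p under 0.05 by edgeR, 2 of the 12 were higher and 1 was lower. The shares over all genes tested were 4.25% higher and 4.73% lower.

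The 10 genes spanned a wide range of levels per transcript length. Ass1 was the highest, with 3176 and 2746 TPM in HFD-WT and 2162 and 2902 TPM in HFD-KO livers, and ranked between 43 and 62 among all genes of a library. Arg1 followed with 1433 and 1425 TPM in HFD-WT and 1272 and 1427 TPM in HFD-KO livers. Next came Cps1, from 563 to 815 TPM, Glud1, from 509 to 582 TPM, and Asl, from 265 to 351 TPM. Otc, Slc25a13 and Slc25a15 lay close together, with means over the 4 libraries of 157, 149 and 140 TPM. Slc7a2 had 101 to 120 TPM, and Nags was the lowest with 53.9 to 63.3 TPM. The ranges of neighbours in this order were separate, except that those of Cps1 and Glud1 overlapped although Cps1 was the higher in 4 of 4 libraries, and that Otc, Slc25a13 and Slc25a15 overlapped in turn. Otc was above Slc25a13 in 2 of 4 libraries, so their order is not fixed by these data. Within a library the authors' RPKM and TPM values differ only by a common factor, so RPKM gives the same order and is no separate check.

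**Figure D2:**
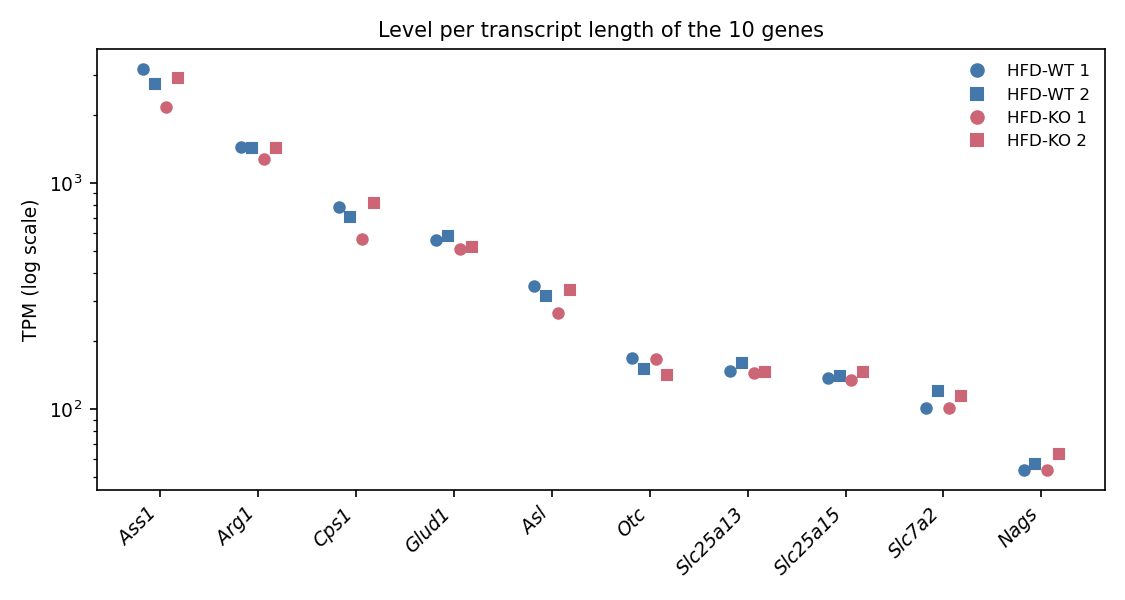
TPM of the 10 genes in each library (vertical axis, log scale), ordered by their mean, with HFD-WT in blue and HFD-KO in red. Ass1 and Arg1 stand highest, Nags lowest, and Otc, Slc25a13 and Slc25a15 share a narrow band around 140 to 157 TPM on average.

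Length matters for such comparisons. The exon length implied by the counts and RPKM was 9883 bases for Slc7a2 and 4588 bases for Otc, so that Slc7a2 had more reads than Otc in every library, with 467 to 538 CPM against 308 to 370 CPM, but fewer per transcript length. Cps1, with 6010 bases, likewise drew more reads than Arg1, with 1598 bases. Together the 10 genes made up 0.722% to 0.888% of the counts in each library and 0.537% to 0.691% of its TPM. HFD-KO replicate 1 gave the lowest share on both scales, while the share of TPM was 0.661% in HFD-KO replicate 2 and 0.641% in HFD-WT replicate 2.

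The sequences in front of the genes at the ends of this range of levels are shown for the 250 bases before each start, as RefSeq gives them on GRCm38.p6, the plus strand in both cases. The promoter of Ass1, the gene with the highest level, is at chr2:31470020-31470269, and that of Nags, the gene with the lowest, is at chr11:102145263-102145512. The gene positions given below are the deposited ones, which equal GRCm38 for 1 of the 10 genes. They cannot be compared with these promoter positions. Capitals mark the letters GGGCGG, a binding motif of Sp1, searched on both strands, so that a match on the other strand reads CCGCCC.
Ass1: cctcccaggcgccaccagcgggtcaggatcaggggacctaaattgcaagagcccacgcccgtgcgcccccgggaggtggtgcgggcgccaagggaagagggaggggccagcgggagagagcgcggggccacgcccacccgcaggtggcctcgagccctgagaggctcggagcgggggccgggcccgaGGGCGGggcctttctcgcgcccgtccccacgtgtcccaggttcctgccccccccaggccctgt
Nags: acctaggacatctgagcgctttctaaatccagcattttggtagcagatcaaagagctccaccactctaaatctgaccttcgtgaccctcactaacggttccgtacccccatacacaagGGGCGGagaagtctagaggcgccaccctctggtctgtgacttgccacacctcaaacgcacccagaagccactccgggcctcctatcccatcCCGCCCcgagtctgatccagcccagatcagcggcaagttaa
The Ass1 sequence holds 75.6% G and C and has 1 match, which starts 63 bases before the gene. That of Nags holds 55.6% G and C and has 2 matches, and the median of all 32851 promoters was 52.4%. The motif occurs in 32.7% of all promoters of this length. Neither sequence holds TATAAA, which 12.4% of all promoters have, or CCAAT, which 33.8% have. The table held a promoter for 6 of the 10 genes, and those of Otc, Slc25a13, Slc25a15 and Glud1 were searched in the same way. Otc, with 43.6% G and C, had no match to any of the 3 motifs, Slc25a13 had a CCAAT, and Slc25a15 and Glud1 had GGGCGG. A match is a run of letters and not evidence of binding.

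The cycle begins with the enzymes of the mitochondrial matrix. Nags (ENSMUSG00000048217, chromosome 11 from 102036339 to 102040303 in the positions of the table, whose build was not checked beyond a comparison with GRCm38) makes N-acetylglutamate, without which CPS1 is inactive. It had 55.0 and 56.6 CPM in HFD-WT and 57.4 and 65.6 CPM in HFD-KO livers, from 1510 to 1594 reads per library. Both HFD-KO values were above both HFD-WT values, but the lower of them by less than the distance between the HFD-WT replicates. The log2 fold change was 0.14 (SE 0.093, edgeR adjusted p = 0.707), with a 95% interval from a fold of 0.947 to 1.28. Without HFD-KO replicate 1, the fold rested on the single higher library and was 0.23 on the log2 scale (unadjusted p = 0.0263 by edgeR, adjusted p = 0.217, and from 0.217 to 0.9999 over all alternatives). In that fit 8.25% of all genes tested rose by this threshold.

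Cps1 (ENSMUSG00000025991, chromosome 1 from 67162185 to 67270418) encodes the enzyme that commits ammonia to the cycle. It had 2190 and 1931 CPM in HFD-WT and 1642 and 2314 CPM in HFD-KO livers. The HFD-KO libraries held the lowest and the highest of the 4 values, and the HFD-WT values lay between them. The 2 HFD-KO libraries thus differed by 1.41-fold, while the log2 fold change between the genotypes was -0.059 (SE 0.17, edgeR adjusted p = 0.947). The 95% interval of the fold, from 0.728 to 1.27, was the widest of the 10.

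Otc (ENSMUSG00000031173, chromosome X from 10118544 to 10187263) joins carbamoyl phosphate to ornithine. It had 359 and 314 CPM in HFD-WT and 370 and 308 CPM in HFD-KO livers, and again the HFD-KO libraries held both extremes. Here replicate 1 of HFD-KO was the highest, where for Cps1 it was the lowest. The log2 fold change was 0.013 (SE 0.12, edgeR adjusted p = 0.983), and scaling by library size alone turned it to -0.032.

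The cytosolic enzymes came next. Ass1 (ENSMUSG00000076441, chromosome 2 from 31360219 to 31410684) joins citrulline and aspartate, and had 2706 and 2283 CPM in HFD-WT and 1925 and 2515 CPM in HFD-KO livers. The groups overlapped, since replicate 2 of HFD-KO lay between the HFD-WT values. The log2 fold change of -0.17 (SE 0.16, edgeR adjusted p = 0.794) was the furthest from 0 among the 10 genes, and its 95% interval ran from a fold of 0.689 to 1.15. Asl (ENSMUSG00000025533, chromosome 5 from 130040099 to 130058088) splits argininosuccinate into arginine and fumarate. It followed the same order of libraries as Ass1, with 540 and 477 CPM in HFD-WT and 427 and 526 CPM in HFD-KO livers (log2 fold change of -0.094 with SE 0.12, edgeR adjusted p = 0.858).

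Arg1 (ENSMUSG00000019987, chromosome 10 from 24791119 to 24803382) releases urea and returns ornithine. It had 1064 and 1032 CPM in HFD-WT and 987 and 1077 CPM in HFD-KO livers, with both HFD-WT values between those of HFD-KO (log2 fold change of -0.022 with SE 0.098, edgeR adjusted p = 0.969). Arg1 is also known in macrophages. Of the 15 macrophage markers given below, 9 were lower in HFD-KO livers at an unadjusted p under 0.05 by edgeR, where 4.73% of all genes tested were. What part of the Arg1 reads came from macrophages was not tested. In bulk RNA, fewer cells of a type and less RNA per cell cannot be told apart.

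**Figure D3:**
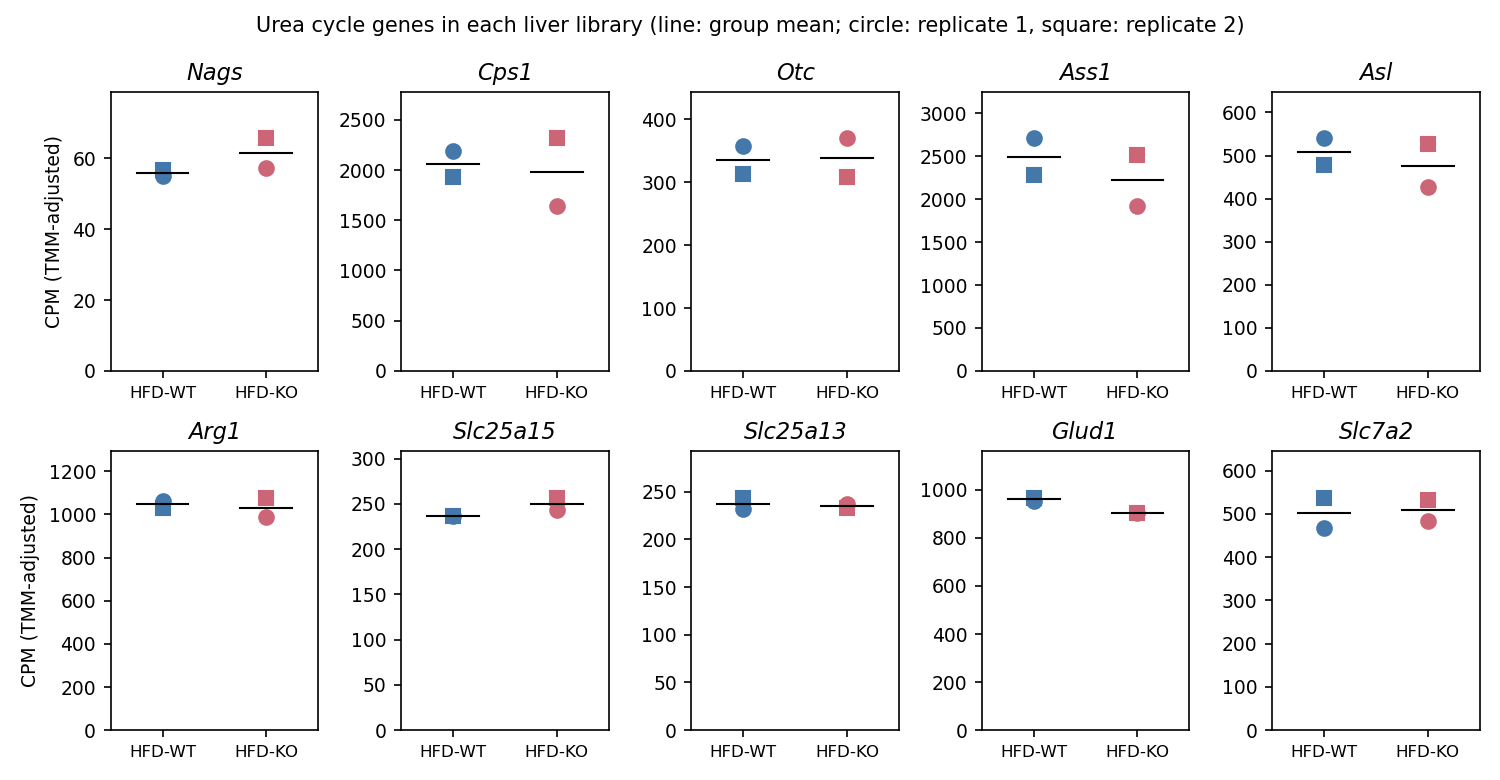
Expression of each of the 10 genes in the 2 HFD-WT (blue) and 2 HFD-KO (red) libraries, as CPM with the axis starting at 0. Lines are group means, circles replicate 1 and squares replicate 2. In HFD-KO livers replicate 1 is below replicate 2 for Cps1, Ass1 and Asl and above it for Otc. The points of Glud1, Slc25a13 and Slc25a15 lie close together within each genotype.

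The mitochondrial carriers and glutamate dehydrogenase varied less between libraries than Cps1, Ass1 and Asl. Slc25a15 (ENSMUSG00000031482, chromosome 8 from 22865567 to 22888613), the ornithine-citrulline carrier, had 236 and 237 CPM in HFD-WT and 243 and 257 CPM in HFD-KO livers. Both HFD-KO values were the higher, and the log2 fold change was 0.080 (SE 0.081, edgeR adjusted p = 0.809). Slc25a13 (ENSMUSG00000015112, chromosome 6 from 6041218 to 6217173), the aspartate-glutamate carrier, had 231 and 244 CPM in HFD-WT and 237 and 233 CPM in HFD-KO livers. Both HFD-KO values fell between those of HFD-WT, and the 95% interval of the fold, from 0.868 to 1.13, was centred near 1 (log2 fold change of -0.015 with SE 0.081, edgeR adjusted p = 0.973).

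Glud1 (ENSMUSG00000021794, chromosome 14 from 34032684 to 34067222), which releases ammonia from glutamate, had 954 and 967 CPM in HFD-WT and 905 and 903 CPM in HFD-KO livers. The replicates differed by 1.38% in HFD-WT and 0.219% in HFD-KO, and the groups did not overlap. The log2 fold change of -0.087 (SE 0.091, edgeR adjusted p = 0.817) did not pass the test, in which edgeR draws the variance of a gene toward that of other genes of like level. It kept a value between -0.10 and -0.075 whichever library was left out. Slc7a2 (ENSMUSG00000031596, chromosome 8 from 41315433 to 41375345), the cationic amino acid transporter, had 467 and 538 CPM in HFD-WT and 484 and 533 CPM in HFD-KO livers. Both HFD-KO values lay inside the HFD-WT range (log2 fold change of 0.019 with SE 0.11, edgeR adjusted p = 0.974), and scaling by library size alone turned the value to -0.028.

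The groups did not overlap for 3 of the 10 genes, with Nags and Slc25a15 higher and Glud1 lower in HFD-KO livers. Of all genes tested, 20.5% did not overlap with HFD-KO higher and 20.3% with HFD-KO lower, 40.8% in all, so that the 3 genes are no more than that background gives. No other gene of the table overlaps any of the 10 on either strand. How reads that align to several places were counted is not given in the sources used here.

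Replicates of a genotype lay far apart for some of these genes and close together for others. In HFD-KO livers the higher library exceeded the lower by 41.0% for Cps1, 30.6% for Ass1, 23.3% for Asl and 19.9% for Otc, and in HFD-WT livers by 13.4%, 18.5%, 13.1% and 14.3%. The same figures for Slc25a15 were 5.71% in HFD-KO and 0.216% in HFD-WT, for Slc25a13 they were 1.73% and 5.31%, and for Glud1, whose groups did not overlap, 0.219% and 1.38%. The median absolute log2 difference between replicates of the 10 genes was 0.13 in HFD-WT and 0.17 in HFD-KO. It was 0.12 and 0.15 over the 12943 genes tested for which it is defined, and 0.072 and 0.10 over the 2636 genes tested with a mean of at least 50 CPM, a level that all 10 exceeded. HFD-KO replicate 1 was the lowest library for 4 of the 10 genes, Cps1, Ass1, Asl and Arg1, and the highest for Otc alone. HFD-WT replicate 1 was likewise the lowest for 4, Nags, Slc25a15, Slc25a13 and Slc7a2, and HFD-KO replicate 2 was the highest for 4.

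The comparison of Cps1, Ass1 and Asl therefore turned on which HFD-KO library was kept. With HFD-KO replicate 2 left out, the log2 fold changes were -0.33 for Cps1, -0.37 for Ass1 and -0.25 for Asl. By edgeR, Ass1 then had an adjusted p = 0.0303, Cps1 an adjusted p = 0.0568 and Asl an adjusted p = 0.237. All 3 had an unadjusted p under 0.05, as 5.63% of all genes tested did in this direction in that fit, and 3.08% of all genes tested had an adjusted p under 0.05 in either direction. With HFD-KO replicate 1 left out instead, the log2 fold changes were 0.17 for Cps1, 0.013 for Ass1 and 0.050 for Asl. Both fits assume that the lone HFD-KO library varies like those of HFD-WT. Over all alternatives the adjusted p ranged from 0.0303 to 0.9999 for Ass1, from 0.0568 to 0.9999 for Cps1 and from 0.237 to 0.9999 for Asl.

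**Figure D4:**
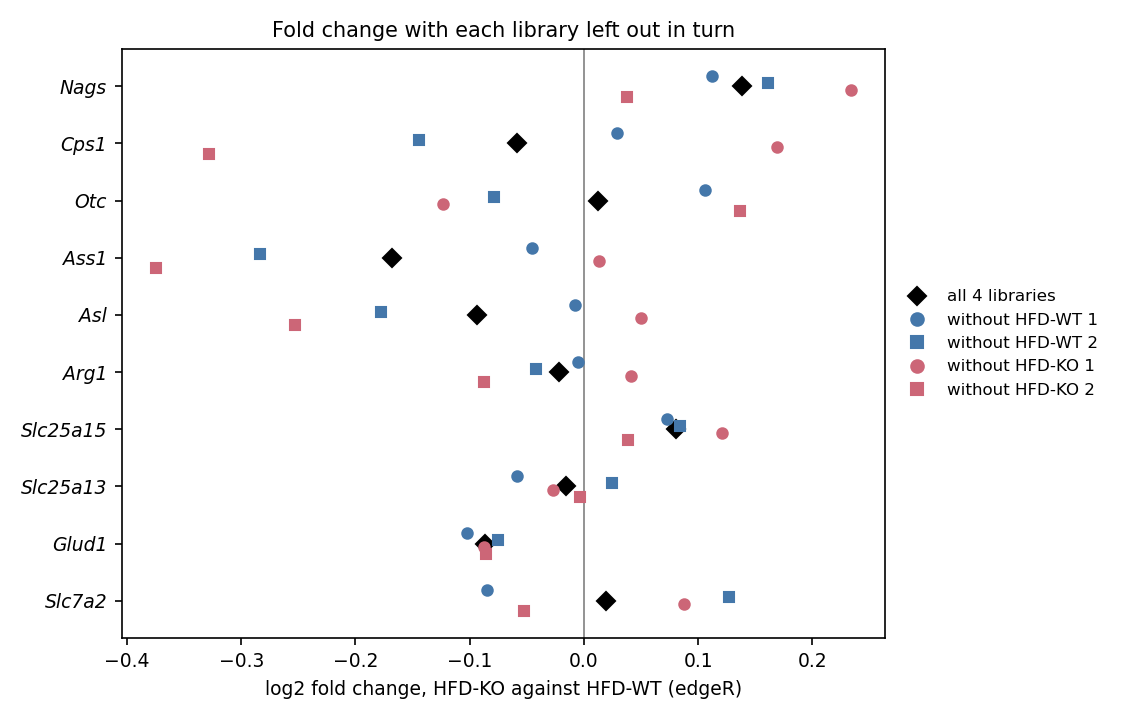
Log2 fold change of each gene, HFD-KO against HFD-WT, with all 4 libraries (black diamonds) and with each library left out in turn (coloured points). Without HFD-KO replicate 2 the points of Cps1, Ass1 and Asl move to -0.33, -0.37 and -0.25. Without HFD-KO replicate 1 they move to 0.17, 0.013 and 0.050, while all points of Glud1 stay between -0.10 and -0.075.

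Cell type markers differed between libraries as well. The 15 Kupffer cell and macrophage markers summed to 563 and 702 CPM in HFD-WT and 477 and 434 CPM in HFD-KO livers, with 9 lower at an unadjusted p under 0.05 and none at 0. Of all genes tested, 4.25% were higher and 4.73% lower by this threshold. The 11 stellate cell markers summed to 430 and 485 CPM in HFD-WT and 382 and 311 CPM in HFD-KO livers, with 5 lower, and the 12 endothelial markers to between 444 and 490 CPM, with 1 lower. The 8 cholangiocyte markers summed to between 103 and 161 CPM, with 1 lower. The 6 red blood cell markers summed to 758 and 601 CPM in HFD-WT and 811 and 1147 CPM in HFD-KO livers, with 3 higher. The 10 lymphocyte and plasma cell markers summed to 129 CPM in HFD-KO replicate 1, where Cps1, Ass1 and Asl were lowest, and to between 17.9 and 20.3 CPM in the other 3 libraries, with 3 higher. For all these lists, 0 genes had an adjusted p under 0.05 by edgeR, and their part in the values of the urea cycle genes was not tested.

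Because the cycle is a periportal pathway, markers of the lobule's zones were set beside it. Of 11 periportal markers outside the 10 genes, 0 rose and 2 fell by the unadjusted p threshold of 0.05, with a median log2 fold change of 0.0052. The 2 were Sds, which encodes serine dehydratase, and Hsd17b13, a lipid droplet protein. Sds had 172 and 187 CPM in HFD-WT and 99.4 and 145 CPM in HFD-KO livers (log2 fold change of -0.55 with SE 0.17, edgeR adjusted p = 0.400). Of 14 pericentral markers, 2 were higher and 1 was lower, with a median of 0.048. Of all genes tested, 4.25% rose and 4.73% fell by this threshold.

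The 7 listed paralogs and related enzymes of the 10 genes were far less abundant in these livers. Arg2, the mitochondrial arginase, had between 5 and 8 reads per library. Slc25a2, a paralog of Slc25a15, had 6 reads and Slc7a3, a paralog of Slc7a2, had 4 reads in the 4 libraries together, and these 3 genes did not pass the filter. Slc25a12, the paralog of Slc25a13 known from muscle and brain, had 18.4 and 17.3 CPM in HFD-WT and 15.3 and 16.7 CPM in HFD-KO livers (log2 fold change of -0.16 with SE 0.096, edgeR adjusted p = 0.668). Slc7a1, another cationic amino acid transporter, had 0.963 to 1.52 CPM and a log2 fold change of -0.014. Cad, which holds the carbamoyl-phosphate synthetase of pyrimidine synthesis, had 10.7 to 12.6 CPM and a log2 fold change of 0.090. Aldh18a1, which makes the precursor of proline and ornithine from glutamate, had 2.28 and 3.02 CPM in HFD-WT and 1.60 and 2.18 CPM in HFD-KO livers (log2 fold change of -0.49 with SE 0.28, edgeR adjusted p = 0.667). None of the 4 tested genes had an unadjusted p under 0.05.

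Ammonia that escapes the cycle is captured as glutamine. Of 18 genes of ammonia and glutamine handling 15 were tested, with 11 above and 4 below 0, where 6685 of the 12967 genes tested were above 0. The median log2 fold change of the 15 was 0.072, which was 0.025 when scaled by library size alone and 0.023 without HFD-KO replicate 1. Only Slc38a2, a glutamine and alanine transporter, had an unadjusted p under 0.05, where 8.98% of all genes tested had one. It had 75.1 and 94.2 CPM in HFD-WT and 101 and 107 CPM in HFD-KO livers (log2 fold change of 0.30 with SE 0.12, edgeR adjusted p = 0.510). Slc38a3, the main glutamine transporter of hepatocytes, had 970 and 969 CPM in HFD-WT and 1079 and 1085 CPM in HFD-KO livers (log2 fold change of 0.16 with SE 0.092, edgeR adjusted p = 0.668). Both HFD-KO values were above both of HFD-WT, as for 4 of the 15 tested genes of this list and 20.5% of all genes tested. Glul, the glutamine synthetase of pericentral hepatocytes, had 1877 and 1799 CPM in HFD-WT and 1822 and 1696 CPM in HFD-KO livers. Gls2, the liver glutaminase that feeds ammonia to the cycle, had 266 and 227 CPM in HFD-WT and 217 and 302 CPM in HFD-KO livers. Car5a, which supplies bicarbonate to CPS1, had 66.4 to 82.4 CPM and a log2 fold change of 0.019.

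Aspartate for argininosuccinate comes from transamination, and fumarate returns through malate. All 12 genes of this supply were tested and 11 were below 0, where 6282 of the 12967 genes tested were. The 12 had a median of -0.077, but 0 of them had an unadjusted p under 0.05. The single gene above 0 was Got1, named after its value was seen, with a log2 fold change of 0.23 (SE 0.12, edgeR adjusted p = 0.630). The groups did not overlap, with HFD-KO lower, for 7 of the 12, where 20.3% of all genes tested were in that state. Scaling by library size alone gave a median of -0.12. Got2, the mitochondrial aspartate aminotransferase, had 715 and 768 CPM in HFD-WT and 747 and 702 CPM in HFD-KO livers, and Pcx, pyruvate carboxylase, had 1031 and 1060 CPM in HFD-WT and 946 and 1026 CPM in HFD-KO livers. Their log2 fold changes were -0.033 and -0.085.

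Of 25 genes for the fates of arginine, ornithine and proline 22 were tested, with 10 above and 12 below 0 and a median of -0.023. Sat1, which acetylates spermidine and spermine for their breakdown, was the only gene with an unadjusted p under 0.05. It had 66.6 and 70.6 CPM in HFD-WT and 56.8 and 55.8 CPM in HFD-KO livers (log2 fold change of -0.28 with SE 0.081, edgeR adjusted p = 0.369). Oat, which sends ornithine out of the cycle toward glutamate, had 1380 and 1105 CPM in HFD-WT and 1260 and 1400 CPM in HFD-KO livers, and Gamt, of creatine synthesis, had 147 to 189 CPM. Both overlapped between the groups.

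All 21 regulators of the cycle's genes and enzymes were tested, with 13 above and 8 below 0 and a median of 0.045. That median was -0.0011 by library size alone, 0.0046 without HFD-KO replicate 2 and 0.019 without HFD-WT replicate 2. Sirt5, the mitochondrial deacylase that acts on CPS1 protein, had an unadjusted p under 0.05, with 16.7 and 18.6 CPM in HFD-WT and 15.2 and 14.7 CPM in HFD-KO livers (log2 fold change of -0.24 with SE 0.098, edgeR adjusted p = 0.527). Hnf4a and Cebpa, hepatocyte transcription factors known to bind urea cycle promoters, had 586 to 681 CPM and 375 to 426 CPM, with log2 fold changes of -0.055 and 0.045. Across the 74 tested genes of these 5 lists edgeR gave 0 an adjusted p under 0.05 and 3, or 4.05%, an unadjusted p under 0.05 in the comparison of all 4 libraries, where 8.98% of all genes tested had one.

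**Figure D5:**
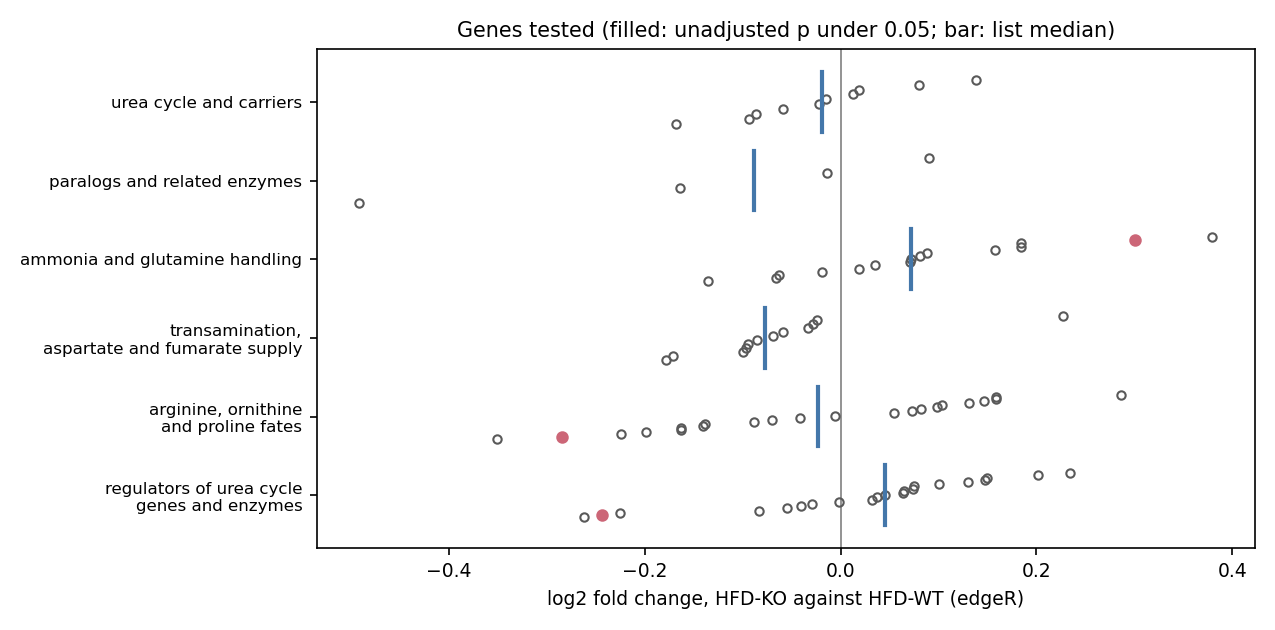
Log2 fold change, HFD-KO against HFD-WT, of every tested gene of the urea cycle and its carriers and of the 5 related lists (1 circle per gene, vertical bars are list medians). Filled circles are the 3 genes with an unadjusted p under 0.05, Slc38a2, Sat1 and Sirt5, and none of them is a urea cycle gene.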

How the data were processed

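Liver RNA of 2 HFD-WT and 2 HFD-KO libraries was used. The authors prepared directional libraries, sequenced paired ends on a DNBSEQ-G400RS, aligned with the MGI Tech tool and quantified genes in Partek Genomics Suite with GENCODE annotation. Their methods name mm10 and the labels name GRCm39 and mm10. Start and end of 1 of the 10 genes equal those of GRCm38, so positions are the table's. Tests used the deposited counts alone, which are whole and not normalized. The deposited TPM and RPKM values, scaled by gene length by the authors, served for levels between genes and for lengths. The deposited CPM column, a score whose sums differ from those of plain CPM, was left out.

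Counts were analysed with edgeR 4.0.16 in R 4.3.3: filterByExpr, TMM, the quasi-likelihood test of genotype, two-sided, and Benjamini-Hochberg adjustment over 12967 genes. Standard errors and 95% intervals come from the F statistic. The procedure was tested on simulated data, in which 200 genes were changed and calls were made at an edgeR adjusted p under 0.05. At a change of 1.5-fold it recovered 64 of the 200, with 9 false calls. At 2-fold it recovered 157 of the 200, with 15 false calls. Many changes of 1.5-fold would thus be missed by this test. The simulation gave both genotypes the same dispersion for a gene and drew the 200 from genes tested at all levels. In the data the HFD-KO replicates lay further apart, with a median absolute log2 difference over genes tested of 0.15 against 0.12 in HFD-WT. The rates for the 10 genes themselves may therefore differ from these. Alternatives were DESeq2 1.42.0, other scalings and filters, a replicate block and leaving out each library. The genes and lists were chosen with earlier results of these data known. Named were the 10 genes, their paralogs and related enzymes, Adarb1, Glul, Gls2, Oat and Car5a. Of each other related list the 2 genes highest in TPM and those with an unadjusted p under 0.05 (at most 4) were named.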

Additional observations from a re-analysis of the deposited data

How the results depend on the processing

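With 2 libraries per genotype, the interval of each gene still holds some changes under 1.5-fold, to an extent that differs by gene. Leaving out a library leaves a genotype with a single one. Of 60 fold changes of the 10 genes, recomputed under 6 settings that keep all libraries, 58 kept their direction and none passed an adjusted p under 0.05. The 2 that turned were Otc and Slc7a2, at -0.032 and -0.028 on the log2 scale when scaled by library size alone. All 6 settings use the same counts of the same libraries, so most directions could hardly turn. Leaving out each library in turn, the log2 fold change ranged from -0.33 to 0.17 for Cps1, -0.12 to 0.14 for Otc, -0.37 to 0.013 for Ass1, -0.25 to 0.050 for Asl, -0.087 to 0.041 for Arg1, -0.058 to 0.024 for Slc25a13 and -0.085 to 0.13 for Slc7a2. It kept its sign for Nags, Slc25a15 and Glud1, the 3 genes whose groups did not overlap. Leaving out a library could hardly turn the sign of such genes, and 40.8% of all genes tested did not overlap. Of the 10 genes, between 0 and 1 were then lower at an adjusted p under 0.05, between 0 and 3 lower and between 0 and 1 higher at an unadjusted p under 0.05. 

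Over all genes, 7 were higher and 3 lower at an adjusted p under 0.05. These counts were 4 higher with the library size alone, 4 higher with at least 1 CPM in 2 libraries, 81 higher and 81 lower with no filter, 57 higher and 60 lower in DESeq2, and from 0 to 376 higher and 0 to 329 lower when each library was left out. With a replicate block they were 12 higher and 8 lower, and 0 of the 10 genes. The labels do not say whether libraries with the same replicate number were paired. Their deviations from the group means correlated by -0.075 across genes. That single value cannot decide whether they were paired, since a link that touched only some genes could be missed. By library size alone the median log2 fold change was 0.025 for ammonia and glutamine handling, -0.12 for transamination, -0.070 for arginine fates, -0.0011 for the regulators and -0.065 for the 10 genes. When each library was left out, the medians ranged from -0.19 to -0.038 for the paralogs and related enzymes and 0.023 to 0.12 for ammonia handling. They ranged from -0.099 to -0.056 for transamination and -0.025 to -0.0012 for arginine fates. For the regulators the range was 0.0046 to 0.085, and for the 10 genes -0.069 to 0.046. The cause was not tested.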
